A study of Mus musculus with 4 samples.

Results

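The 9 transcription factor genes Nkx2-1, Nkx2-2, Nkx2-4, Nkx2-9, Nkx6-1, Nkx6-2, Olig1, Olig2 and Dbx1 were followed through the embryonic mouse brain, cell by cell and region by region. They were taken by name, as 9 of the 20719 genes listed in at least 1 library, and all 9 were listed in each of the 4 libraries. The samples were heads of mouse embryos at E10.5, dissociated, sorted by DAPI stain so that dead cells were discarded, and made into droplet libraries of single cells with unique molecular identifiers (UMIs). The 2 groups were Apcdd1+/- embryos, heterozygous for Apcdd1, which encodes a membrane inhibitor of BMP and Wnt signals, and wild-type (WT) embryos, with 2 libraries each. The labels give neither the strain, nor the number of embryos behind a library, nor whether replicates came from separate embryos. The p-values between genotypes therefore measure the spread between these libraries, which may be technical. Those between brain regions measure the spread left after each library's own level is removed, which may be technical too.

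Sonic hedgehog, secreted from the notochord and the floor plate, is read by neural progenitors as a graded signal. It switches on the Nkx2, Nkx6 and Olig genes at different thresholds and shuts off genes such as Dbx1, Pax6 and Irx3, and pairs of these factors repress each other, which splits the ventral neural tube into stacked progenitor domains. In the forebrain the same system is overlaid by Nkx2-1 and its paralogue Nkx2-4, which mark the prospective hypothalamus, and Nkx2-1 also marks the ventral telencephalon.

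No file gives cell types, so regions were set with marker genes, none of them a member. Neural progenitors with telencephalic expression were set aside, and those with UMIs of at least 2 of Rax, Six6, Six3, Fezf1 and Vax1 were called the hypothalamic gate. The midbrain gates required Otx2 with En1, En2 or Pax5, the hindbrain gates required Gbx2, Egr2 or Hox genes without Otx2, and progenitors with Otx2 but none of these other genes are called the Otx2 remainder. The Otx2 remainder can also hold midbrain cells in which En1, En2 and Pax5 were not detected, so it may pool regions. Midbrain, hindbrain and Otx2 remainder were each split into a ventral gate (Foxa1, Foxa2 or Shh), a dorsal gate (Pax3, Pax7 or Msx genes) and an intermediate gate with neither. The intermediate gates rest on genes without a UMI, so they can also hold ventral or dorsal cells in which these genes were not detected. Levels are UMIs of a gene per 1000000 UMIs of a gate in a library (CPM). The hypothalamic gate held 633 cells over the 4 libraries (119 to 244 per library), the ventral Otx2 remainder 675, the ventral midbrain 167 (13 to 76), the intermediate midbrain 583 and the intermediate hindbrain 187. The ventral hindbrain held only 28 cells and could not be tested.

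After filtering, 24259 cells remained, and the median UMIs per cell were 9118 and 8934.5 in the Apcdd1+/- libraries, against 11506 and 17133.5 in the WT libraries. Apcdd1 itself did not separate the groups: over all kept cells it had 77.4 and 49.5 CPM in the libraries labelled Apcdd1+/- and 63.4 and 60.8 CPM in those labelled WT (log2 difference 0.08, SE 0.23, edgeR adjusted p = 1.00). The genotype is therefore the one on the labels throughout. Marker genes kept out of the gates gave a mixed picture of them. Tbx3, Tbx2, Fgf10, Hmx3 and Otp summed to 23.4 to 101 CPM in the hypothalamic gate and 1.39 to 3.12 CPM in the ventral Otx2 remainder, although mesenchyme held 92.3 to 141 CPM of them. Ptch1, Gli1, Ntn1 and Spon1 summed to 473 to 641 CPM in the ventral midbrain, 155 to 278 CPM in the intermediate midbrain and 37.6 to 79.5 CPM in the dorsal midbrain. Pax2, Cnpy1, Lmx1b and Wnt1 summed to 177 to 257 CPM in the ventral midbrain and 16.1 to 31.4 CPM in the hypothalamic gate, but the intermediate hindbrain held 33.1 to 205 CPM and the dorsal hindbrain 38.9 to 305 CPM of them, which overlaps the midbrain gates. The hindbrain genes Hoxb4, Hoxd4, Hoxb5 and Cyp26c1 reached only 0 to 4.52 CPM in the intermediate hindbrain and 1.96 to 7.44 CPM in the dorsal hindbrain, against 0.127 to 0.662 CPM in mesenchyme and 0 in the midbrain gates, so the hindbrain gates rest mainly on their own gate genes. Pairs of libraries shared 6 to 25 cell barcodes.

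The 9 genes lie on 5 chromosomes of the mouse genome (mm10, GENCODE annotation), all of them protein-coding with their exons on 1 strand each. Nkx2-1 (chr12:56531958-56536908, minus strand) and Nkx2-9 (chr12:56611389-56613284, minus strand) are neighbours with 74.5 kb between them. Nkx2-4 (chr2:147083316-147085445, minus strand) and Nkx2-2 (chr2:147177546-147194243, minus strand) are separated by 92.1 kb. Olig2 (chr16:91225457-91228677, plus strand) and Olig1 (chr16:91269772-91271933, plus strand) are separated by 41.1 kb. Nkx6-1 (chr5:101658139-101664996, minus strand) stands alone, and Nkx6-2 (chr7:139579376-139582797, minus strand) and Dbx1 (chr7:49631499-49636849, minus strand) lie far apart on 1 chromosome. The labels do not state whether UMI counting used the strand, and Nkx2-2 and Nkx2-1 overlap antisense transcripts, Olig1 overlaps the lincRNA Gm15966 on the other strand, and Nkx6-2 overlaps the gene Inpp5a on the other strand, so reads of these pairs may not be separated.

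The sequences just upstream of the start are shown for 4 members with different regional patterns, one of the forebrain (Nkx2-1), one of midbrain and hindbrain (Nkx2-9), one of the intermediate midbrain (Nkx6-2) and one found both ventrally and dorsally (Dbx1). The 250 bases are from RefSeq (GRCm38.p6), written 5′ to 3′ on the strand of the gene, with a TATAAA match in capitals. Positions are chr12:56536909-56537158 for Nkx2-1, chr12:56613285-56613534 for Nkx2-9, chr7:139582798-139583047 for Nkx6-2 and chr7:49636836-49637085 for Dbx1, all on the minus strand.
Nkx2-1: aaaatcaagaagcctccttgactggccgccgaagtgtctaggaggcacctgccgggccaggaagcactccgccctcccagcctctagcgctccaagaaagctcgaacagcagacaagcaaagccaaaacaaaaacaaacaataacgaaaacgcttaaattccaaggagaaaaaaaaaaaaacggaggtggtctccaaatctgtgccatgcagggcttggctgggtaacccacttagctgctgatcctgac
Nkx2-9: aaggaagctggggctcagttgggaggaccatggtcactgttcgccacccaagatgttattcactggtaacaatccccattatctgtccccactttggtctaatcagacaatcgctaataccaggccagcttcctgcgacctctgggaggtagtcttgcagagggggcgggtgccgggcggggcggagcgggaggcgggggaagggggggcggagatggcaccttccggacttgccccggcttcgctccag
Nkx6-2: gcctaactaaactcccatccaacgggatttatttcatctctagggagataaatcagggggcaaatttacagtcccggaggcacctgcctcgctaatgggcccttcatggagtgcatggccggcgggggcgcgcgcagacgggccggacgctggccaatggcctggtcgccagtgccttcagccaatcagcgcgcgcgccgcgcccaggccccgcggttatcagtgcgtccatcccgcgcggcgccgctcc
Dbx1: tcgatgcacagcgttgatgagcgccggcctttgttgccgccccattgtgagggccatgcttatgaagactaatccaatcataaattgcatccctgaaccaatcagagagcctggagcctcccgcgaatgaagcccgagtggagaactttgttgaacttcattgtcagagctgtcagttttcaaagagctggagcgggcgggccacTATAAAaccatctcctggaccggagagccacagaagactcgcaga
Such windows were in the table for 8 of the 9 members, all but Olig1. TATAAA on either strand was found in 2 of the 8, Dbx1 and Olig2, and in 12.4% of the 32851 windows of all genes. The Gli factor motif GACCACCCA on either strand was in 0 of the 8 and in 0.225% of all windows. The homeodomain core TAATTA, which reads the same on both strands, was in 0 of the 8 and in 4.84% of all. CAAGTG, the core bound by NK2 factors, was on either strand in 1 of the 8, Nkx2-2, and in 11.6% of all windows. GC content was 50.8% for Nkx2-1, 61.6% for Nkx2-9, 65.2% for Nkx6-2 and 52.8% for Dbx1.

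All 9 members were higher in the ventral than in the dorsal Otx2 remainder at an edgeR adjusted p under 0.05, where 10.7% of the 11295 tested genes were called (5.67% higher and 5% lower). Their median log2 difference was 3.88, against 0.00 over all tested genes. In the midbrain, 6 members were higher and 1 lower in the ventral than in the dorsal gate, where 10.9% of 11115 genes were called (5.59% higher and 5.26% lower). The hypothalamic gate, set against the ventral midbrain, was higher in 3 members and lower in 3, beside 10.9% of all genes called (4.65% higher and 6.25% lower). Against the intermediate hindbrain it was higher in 5 and lower in 3, beside 8.53% of all genes (4.14% higher and 4.39% lower). The hypothalamic gate and the ventral Otx2 remainder differed in 2 members, both lower in the hypothalamic gate, beside 10.2% of all genes (4.75% higher and 5.43% lower). The intermediate hindbrain was higher than the dorsal hindbrain in 4 members and lower in none, beside 2.31% of all genes (1.26% higher and 1.05% lower). The ventral midbrain was higher than the intermediate midbrain in 2 members and lower in 1, beside 6.95% of all genes (3.81% higher and 3.15% lower). Against the intermediate hindbrain the ventral midbrain was higher in 2, beside 6.52% of all genes (3.6% higher and 2.92% lower). The intermediate hindbrain lacks UMIs of the ventral gate genes, so this contrast mixes dorsoventral position with region. All 9 passed the filter on low counts in these fits. Each test summed UMIs per library and gate and kept the library as a block, with the 4 libraries of both genotypes together.

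**Figure D1:**
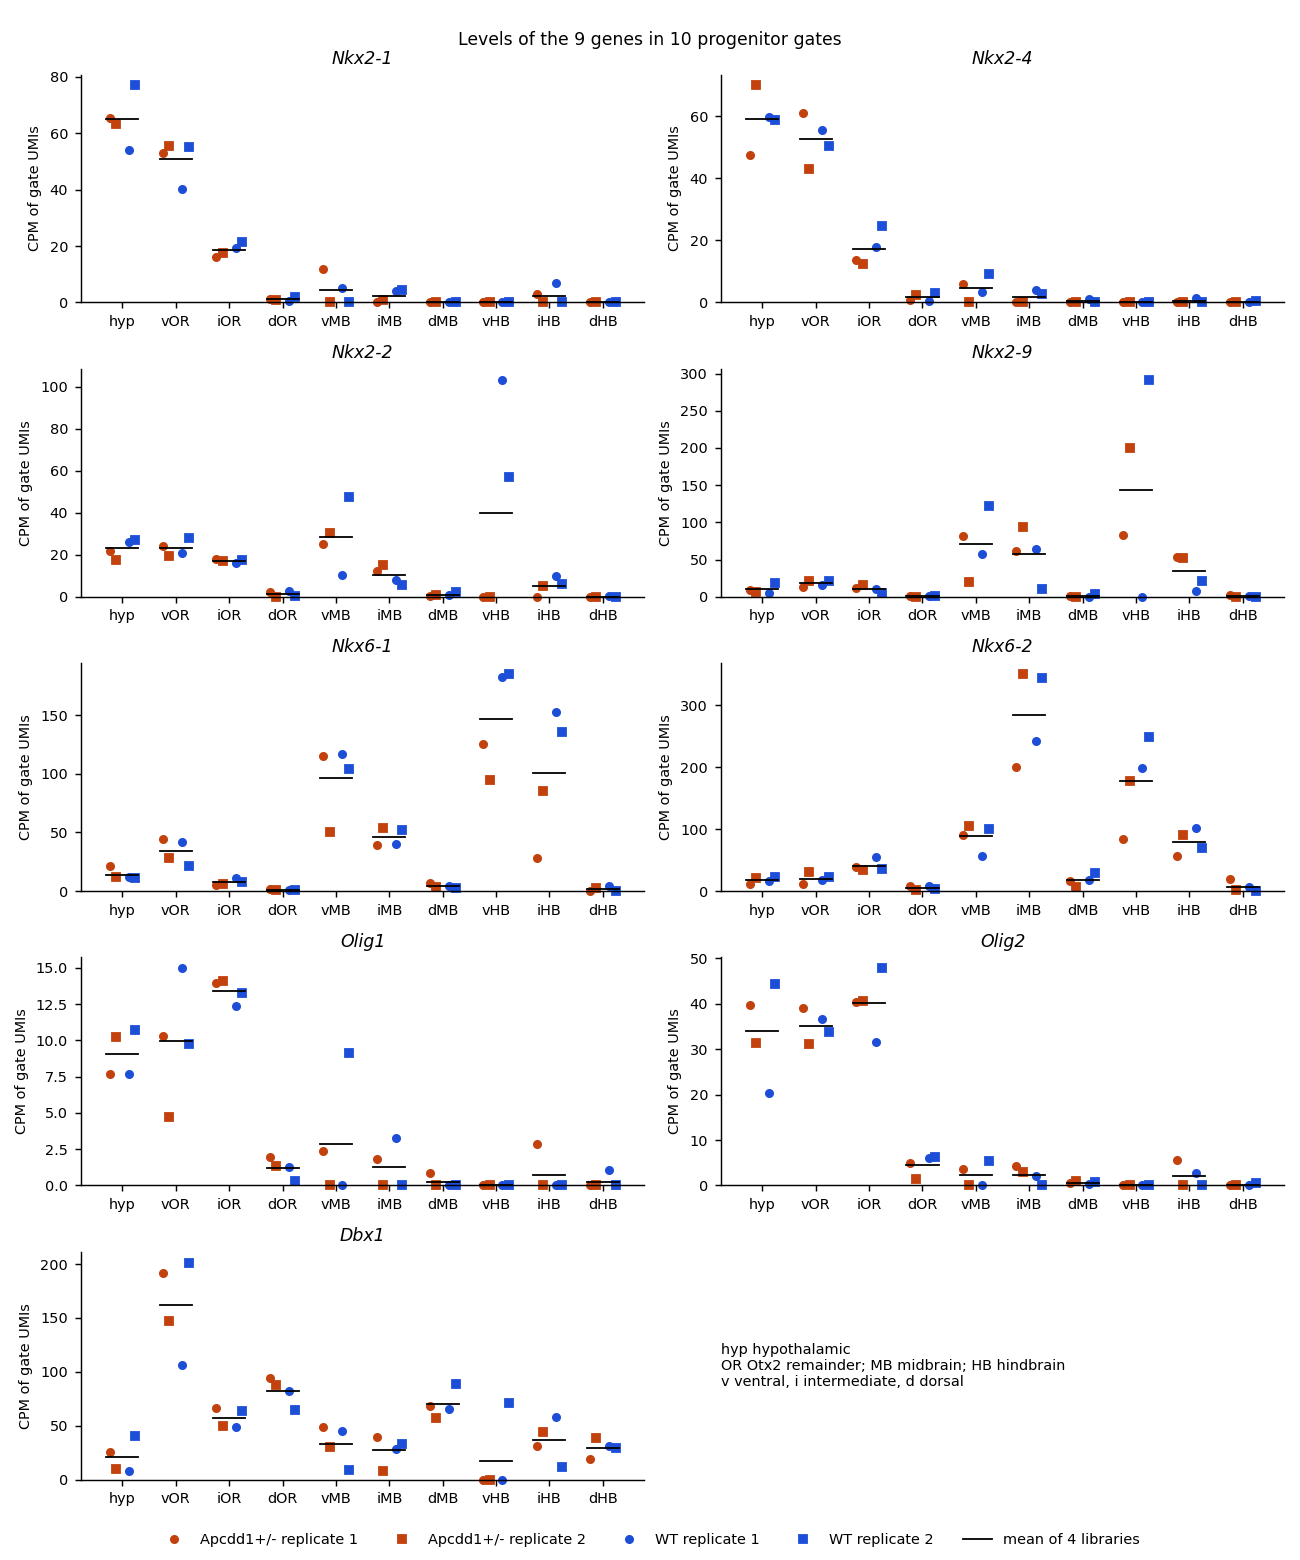
CPM of each gene (y axis, linear, from 0) in 10 progenitor gates (x axis), 1 point per library, Apcdd1+/- libraries in orange left of WT libraries in blue, with the mean of the 4 as a line. Nkx2-1 and Nkx2-4 stand highest in the hypothalamic gate and the ventral Otx2 remainder, Nkx6-2 in the intermediate midbrain (285 CPM on average) and Dbx1 in the ventral Otx2 remainder (162 CPM).

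Nkx2-1, a homeodomain factor required for the ventral forebrain, was highest in the hypothalamic gate and the ventral Otx2 remainder. It had 65.4 and 63.5 CPM in the Apcdd1+/- libraries and 54.1 and 77.0 CPM in the WT libraries in the hypothalamic gate. The ventral Otx2 remainder had 53.1 and 55.4 CPM in Apcdd1+/- and 40.2 and 55.2 CPM in WT. These gates overlapped between libraries, and every library of both stood above the intermediate Otx2 remainder (16.2 to 21.5 CPM). In the midbrain and hindbrain Nkx2-1 was low, with 0 to 12 CPM in the ventral midbrain, means of 2.46 CPM or less in the intermediate and dorsal midbrain gates and no UMI among the 403 cells of the dorsal hindbrain, which allows up to 0.524 CPM. Nkx2-1 was higher in the ventral than in the dorsal Otx2 remainder (log2 difference 5.34, SE 0.28, edgeR adjusted p = 9.8e-22). A UMI of Nkx2-1 was found in 31.6% and 27.7% of hypothalamic cells in Apcdd1+/- and 29.7% and 43.2% in WT (median 10409 to 20867 UMIs per cell), against 0.204% to 0.645% of mesenchyme cells (median 11567 to 16731). At 5000 UMIs per cell the hypothalamic shares were 21.9% and 25% in Apcdd1+/- and 17.6% and 34.8% in WT.

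Nkx2-4, a close paralogue of Nkx2-1 also known from the hypothalamus and thyroid, was highest in the hypothalamic gate and the ventral Otx2 remainder. It had 47.7 and 70.0 CPM in Apcdd1+/- and 59.7 and 59.0 CPM in WT in the hypothalamic gate, and 61.2 and 42.9 CPM in Apcdd1+/- and 55.7 and 50.6 CPM in WT in the ventral Otx2 remainder. The intermediate Otx2 remainder held 12.5 to 24.6 CPM. The 2 paralogues stood at like levels in both gates. For each UMI of Nkx2-1 there were 0.729 and 1.10 UMIs of Nkx2-4 in Apcdd1+/- and 1.10 and 0.766 in WT in the hypothalamic gate, and 1.15 and 0.775 in Apcdd1+/- and 1.385 and 0.916 in WT in the ventral Otx2 remainder. Set against the ventral midbrain, both were higher in the hypothalamic gate, Nkx2-1 by 3.48 (SE 0.38) and Nkx2-4 by 3.41 (SE 0.42) on the log2 scale. In the ventral midbrain Nkx2-1 had 12 and 0 CPM in Apcdd1+/- and 5.22 and 0 CPM in WT. Neither Nkx2-1 nor Nkx2-4 passed the filter on low counts in the genotype test of that gate. The calls of Nkx2-1 (5.18) and Nkx2-4 (3.39) against the dorsal midbrain thus rest on few UMIs. They were lost without Apcdd1+/- replicate 1 (Nkx2-1 5.43, Nkx2-4 2.97), and that of Nkx2-4 also without WT replicate 2 (2.83).

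Nkx2-2, the factor of the ventral progenitors nearest the floor plate, had no regional preference as sharp as these. In the hypothalamic gate it had 21.6 and 17.5 CPM in Apcdd1+/- and 26.0 and 27.2 CPM in WT, and in the ventral midbrain 25.3 and 30.3 CPM in Apcdd1+/- and 10.4 and 47.5 CPM in WT. These gates overlapped, and edgeR gave a log2 difference of -0.18 (SE 0.30, adjusted p = 0.80), with a 95% interval of -0.79 to 0.43. Within the midbrain Nkx2-2 was higher in the ventral than in the dorsal gate by 4.74 (SE 0.51, adjusted p = 8.9e-11) and higher than in the intermediate gate by 1.31 (SE 0.35, adjusted p = 0.01). The call against the intermediate gate was lost without WT replicate 2 (0.76). Toward the hindbrain it was higher in the hypothalamic gate than in the intermediate hindbrain (1.95, SE 0.41, adjusted p = 0.00053) and higher in the ventral midbrain than in the intermediate hindbrain (2.12, SE 0.48, adjusted p = 0.0020). The first was not called on thinned cells (1.35) and the second not without WT replicate 2 (1.70). The intermediate hindbrain was gated to lack UMIs of Foxa1, Foxa2 and Shh, so the second contrast also differs in dorsoventral position. The intermediate hindbrain was called higher than the dorsal hindbrain (log2 difference 4.79, SE 1.05, edgeR adjusted p = 0.0033), but not on thinned cells (6.50) nor without WT replicate 1 (6.70). In the intermediate hindbrain itself Nkx2-2 rested on 0 and 3 UMIs in Apcdd1+/- and 7 and 4 in WT. In the ventral hindbrain the 28 cells held 0 and 0 UMIs of Nkx2-2 in Apcdd1+/- (3 and 9 cells) and 13 and 8 in WT (10 and 6 cells). All genes of that gate summed to 23937 and 95295 UMIs in Apcdd1+/- and 125893 and 140555 in WT.

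Nkx2-9, a paralogue of Nkx2-2 that is coexpressed with it in the ventral neural tube, leaned to the midbrain and hindbrain. It had 81.8 and 20.2 CPM in Apcdd1+/- and 57.4 and 122 CPM in WT in the ventral midbrain, and 9.40 and 6.56 CPM in Apcdd1+/- and 5.61 and 18.8 CPM in WT in the hypothalamic gate. Every ventral midbrain library stood above every hypothalamic one. The margin was narrow, with 20.2 CPM from the 13 ventral midbrain cells of Apcdd1+/- replicate 2 above 18.8 CPM in the hypothalamic gate of WT replicate 2. The edgeR log2 difference, hypothalamic minus ventral midbrain, was -2.84 (SE 0.40, adjusted p = 1.7e-07). The intermediate midbrain had 61.4 and 94.1 CPM in Apcdd1+/- and 64.3 and 10.1 CPM in WT, so that WT replicate 2 stood low there while it was the highest library of the ventral gate. The ventral and intermediate midbrain overlapped (log2 difference 0.41, SE 0.34, adjusted p = 0.59). The dorsal midbrain had 4.11 CPM or less, and the ventral gate exceeded it by 5.72 (SE 0.57). The intermediate hindbrain exceeded the dorsal hindbrain by 5.73 (SE 0.87, adjusted p = 6.2e-06), with 54.1 and 52.8 CPM of Nkx2-9 in Apcdd1+/- and 8.31 and 21.1 CPM in WT in the intermediate gate. On thinned cells that call was lost (6.59). Nkx2-9 was lower in the hypothalamic gate than in the intermediate hindbrain (-1.46, SE 0.47, adjusted p = 0.04) and higher in the ventral midbrain than there (1.34, SE 0.43, adjusted p = 0.048), and DESeq2 called neither (-1.78 and 0.96). The first was also lost without Apcdd1+/- replicate 1 (-1.13) or Apcdd1+/- replicate 2 (-1.01), and the second without Apcdd1+/- replicate 1 (1.56), WT replicate 1 (1.08) or WT replicate 2 (0.87).

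Nkx6-1, which promotes motor neuron fate in the ventral hindbrain and spinal cord, was highest in the ventral midbrain and the hindbrain. It had 115 and 50.5 CPM in Apcdd1+/- and 117 and 104 CPM in WT in the ventral midbrain, against 21.2 and 12.4 CPM in Apcdd1+/- and 11.7 and 11.1 CPM in WT in the hypothalamic gate. The groups did not overlap, and edgeR gave the hypothalamic gate a log2 difference of -2.77 (SE 0.28, adjusted p = 6.6e-12). The hypothalamic gate was not split into ventral and dorsal cells. It held 173 to 276 CPM of the ventral genes Ptch1, Gli1, Ntn1 and Spon1, against 473 to 641 CPM in the ventral midbrain, and 149 to 195 CPM of the dorsal genes Wnt1, Wnt3a, Olig3, Gdf7 and Zic1, which set no gate, against 15.1 to 45.7 CPM in the ventral midbrain. The part of these shifts in the contrasts between the 2 gates was not tested. The intermediate hindbrain had 28.5 and 85.1 CPM in Apcdd1+/- and 152 and 135 CPM in WT, and exceeded the dorsal hindbrain by 5.65 (SE 0.42, adjusted p = 2.6e-15). Against the ventral midbrain the intermediate hindbrain overlapped (0.11 lower in the ventral midbrain, -0.11, SE 0.25). Nkx6-1 was lower in the hypothalamic gate than in the ventral Otx2 remainder, which had 44.6 and 28.1 CPM in Apcdd1+/- and 41.8 and 21.8 CPM in WT (-1.22, SE 0.27, adjusted p = 0.00093). DESeq2 gave -1.22 and did not call it.

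Nkx6-1 was the one member with many UMIs in mesenchyme. In mesenchyme, 13.7% and 5.16% of cells in Apcdd1+/- and 9.16% and 7.74% in WT held a UMI of Nkx6-1 (9.80%, 4.10%, 6.28% and 3.14% at 5000 UMIs per cell), against none of the 132 erythroid cells. In the hypothalamic gate 6.72% to 9.02% of cells held one, a share that overlaps that of mesenchyme, against 40.8% and 46.2% in Apcdd1+/- and 46.7% and 57.6% in WT in the ventral midbrain. Against the intermediate hindbrain the hypothalamic gate had an edgeR log2 difference of -2.87 (SE 0.28, adjusted p = 5.3e-12).

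Nkx6-2, a paralogue of Nkx6-1 that overlaps with it and reaches further from the floor plate, peaked in the intermediate midbrain. There it had 201 and 351 CPM in Apcdd1+/- and 242 and 344 CPM in WT, against 91.4 and 106 CPM in Apcdd1+/- and 57.4 and 100.5 CPM in WT in the ventral midbrain. All 4 intermediate values exceeded all 4 ventral ones, and edgeR gave the ventral midbrain a log2 difference of -1.72 (SE 0.21, adjusted p = 1.0e-08). Nkx6-1 ran the other way, higher in the ventral than in the intermediate midbrain by 1.12 (SE 0.25, adjusted p = 0.0015), although DESeq2 gave 0.98 and did not call it. For each UMI of Nkx6-1 there were 0.792 and 2.1 UMIs of Nkx6-2 in Apcdd1+/- and 0.493 and 0.965 in WT in the ventral midbrain, against 5.10 and 6.47 in Apcdd1+/- and 6.05 and 6.60 in WT in the intermediate midbrain. Both stood low in the dorsal midbrain, where Nkx6-2 had 6.99 to 28.8 CPM and Nkx6-1 2.74 to 6.69 CPM. The ventral midbrain exceeded the dorsal by 2.2 (SE 0.30) for Nkx6-2 and 4.39 (SE 0.33) for Nkx6-1. In the hindbrain Nkx6-2 had 57.0 and 90.2 CPM in Apcdd1+/- and 102 and 69.2 CPM in WT in the intermediate gate, which exceeded the dorsal gate by 4.12 (SE 0.40). Nkx6-2 was also higher in the ventral than in the dorsal Otx2 remainder (1.62, SE 0.33, edgeR adjusted p = 0.00022). With 2 or more UMIs in total of Foxa1, Foxa2 and Shh required in the ventral gate this became 0.86 and was not called. The rule for the dorsal gate was unchanged there. A UMI of Nkx6-2 was found in 46.1% to 63.5% of intermediate midbrain cells (37.4% to 50.0% at 5000 UMIs per cell), against 0.476% to 1.94% of mesenchyme cells.

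Within the ventral midbrain gate, 47 cells carried UMIs of the floor plate genes Lmx1a, Corin or Ferd3l and 120 did not. No UMI of Nkx6-2 was found in the 47 marked cells, which allows up to 4.78 CPM over the 4 libraries, and the 120 other cells had 126 and 169 CPM in Apcdd1+/- and 89.6 and 128 CPM in WT. Nkx6-1 had 34.8 and 0 CPM in Apcdd1+/- and 87.0 and 25.9 CPM in WT in the marked cells, against 146 and 80.5 CPM in Apcdd1+/- and 133 and 125 CPM in WT in the others. Each library was thus lower for both Nkx6 genes in its marked cells. Nkx2-2 had 0 and 0 CPM in Apcdd1+/- and 4.83 and 43.1 CPM in WT in marked cells, and 34.9 and 48.3 CPM in Apcdd1+/- and 13.6 and 48.7 CPM in WT in the others, with WT replicate 2 nearly level. The marked cells numbered 5 to 21 per library, so these values are given without a test.

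**Figure D2:**
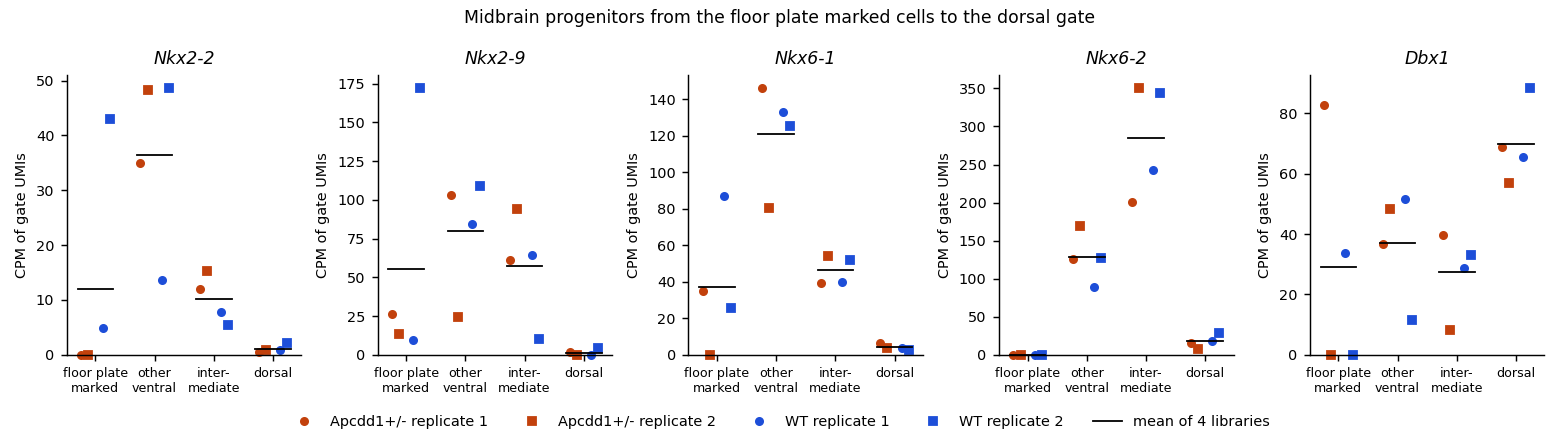
CPM (y axes, linear, from 0) of 5 genes in midbrain progenitors, from floor plate marked cells over the other ventral cells and the intermediate gate to the dorsal gate (x axes), 1 point per library and the mean as a line. Nkx6-1 is highest in the other ventral cells (80.5 to 146 CPM), Nkx6-2 in the intermediate gate (201 to 351 CPM) and Dbx1 on average in the dorsal gate (56.8 to 88.4 CPM).

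Olig2, the bHLH factor of motor neuron and oligodendrocyte progenitors, was highest in the hypothalamic gate and the ventral and intermediate Otx2 remainder. It had 39.7 and 31.4 CPM in Apcdd1+/- and 20.4 and 44.4 CPM in WT in the hypothalamic gate, and 39.1 and 31.2 CPM in Apcdd1+/- and 36.6 and 33.9 CPM in WT in the ventral Otx2 remainder. The intermediate Otx2 remainder averaged 40.1 ± 6.60 CPM (SD, n = 4), and these 3 gates overlapped. The dorsal Otx2 remainder averaged 4.60 CPM, lower than the ventral one (log2 difference 2.86, SE 0.23, edgeR). In the ventral midbrain Olig2 had 3.61 and 0 CPM in Apcdd1+/- and 0 and 5.48 CPM in WT, and the hypothalamic gate exceeded it by 3.68 (SE 0.49, edgeR adjusted p = 3.0e-08). No UMI of Olig2 was found in the ventral hindbrain.

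Olig1, its neighbour and the factor of later oligodendrocyte maturation, followed the same gates at low counts. It had 7.66 and 10.2 CPM in Apcdd1+/- and 7.65 and 10.7 CPM in WT in the hypothalamic gate, and 13.9 and 14.1 CPM in Apcdd1+/- and 12.4 and 13.3 CPM in WT in the intermediate Otx2 remainder, where all 4 libraries stood above those of the hypothalamic gate. The ventral Otx2 remainder had 10.3 and 4.68 CPM in Apcdd1+/- and 15.0 and 9.74 CPM in WT, and exceeded the dorsal one by 2.88 (SE 0.38, edgeR log2 difference).

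Dbx1, a homeodomain factor of progenitors midway up the neural tube that is repressed by the Nkx6 proteins, was not confined to the ventral gates. Its highest level was in the ventral Otx2 remainder, with 191 and 148 CPM in Apcdd1+/- and 107 and 201 CPM in WT. The dorsal Otx2 remainder came next, with 94.5 and 88.1 CPM in Apcdd1+/- and 82.0 and 64.6 CPM in WT, followed by the dorsal midbrain with 68.8 and 56.8 CPM in Apcdd1+/- and 65.5 and 88.4 CPM in WT. In the ventral midbrain it had 49.3 and 30.3 CPM in Apcdd1+/- and 45.2 and 9.13 CPM in WT, below every dorsal midbrain library. The ventral midbrain was lower than the dorsal by 1.05 (-1.05, SE 0.33, edgeR adjusted p = 0.025). This call was lost with DESeq2 (-1.10), without the library block (-1.04) and without WT replicate 2 (-0.62). In the Otx2 remainder it was higher ventrally (0.92, SE 0.16, adjusted p = 8.6e-06), a call that DESeq2 did not give (0.90). The hypothalamic gate had 25.8 and 10.2 CPM in Apcdd1+/- and 8.16 and 41.0 CPM in WT, lower than the ventral Otx2 remainder by 2.80 (-2.80, SE 0.21, adjusted p = 3.9e-16). In the hindbrain the intermediate and dorsal gates overlapped, with a log2 difference of 0.22 (SE 0.36, adjusted p = 0.88). A UMI of Dbx1 was found in 30.2% to 40.0% of cells of the ventral Otx2 remainder (20.0% to 31.9% at 5000 UMIs per cell), against 0% to 1.94% of mesenchyme cells and 0% to 13.6% of the 22 to 49 erythroid cells per library.

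Which of the members were found in the same cell was counted for all 36 pairs. The count of cells with UMIs of both genes was divided by the number expected from the 2 separate shares in each library. Cells of 1 library differ in depth, which by itself raises such ratios, so values at 5000 UMIs per cell are given beside them, and no test was made. The expected numbers also take each gate as uniform. A gate that pools regions or domains can move such ratios either way, and the part of this was not tested. Nkx2-1 and Nkx2-4 were found together in 147 hypothalamic cells where 59.3 were expected (ratio 2.48, range over libraries 2.16 to 2.68, thinned 2.79). The paralogues Nkx2-2 and Nkx2-9 were found together in 44 cells of the ventral and intermediate midbrain where 14.1 were expected (3.13, range 2.54 to 3.59, thinned 4.11). Olig1 and Olig2 were found together in 153 cells of the intermediate Otx2 remainder where 53.0 were expected (2.89, range 2.76 to 3.32, thinned 3.35), and Nkx6-1 and Nkx6-2 in 82 where 13.2 were expected (6.20, range 5.23 to 9.53, thinned 5.58). Each of these paralogue pairs thus shared cells above the expected number in the gate given for it.

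Other pairs were found together less often than expected in some gates. Nkx2-1 and Olig2 were together in 20 hypothalamic cells where 52.0 were expected (0.385, range 0.293 to 0.434, thinned 0.290). In the ventral Otx2 remainder the same 2 genes were together in 65 cells where 35.5 were expected (1.83, range 1.62 to 2.45, thinned 2.1). In every library the ratio was under 1 in the hypothalamic gate and above 1 in the ventral Otx2 remainder, although on thinned cells 3 of 4 libraries were above 1 there. Nkx2-4 and Olig2 were together in 11 hypothalamic cells where 44.1 were expected (0.249, range 0 to 0.34, thinned 0.337), against 48 cells of the ventral Otx2 remainder where 31.5 were expected (1.52, thinned 1.56). Nkx6-1 and Dbx1, a pair known for repression, were together in 13 cells of the ventral Otx2 remainder where 38.0 were expected (0.342, range 0.141 to 0.424, thinned 0.456) and in 8 cells of the ventral and intermediate midbrain where 25.4 were expected (0.315, range 0.224 to 0.446, thinned 0.227). Nkx6-1 and Olig2 were together in 2 cells of the ventral Otx2 remainder where 24.1 were expected (0.0832, range 0 to 0.217, thinned 0.156), but in 19 hypothalamic cells where 12.7 were expected (1.496, thinned 1.98). Nkx2-1 and Dbx1 did share cells of the ventral Otx2 remainder, 132 where 55.7 were expected (2.37, range 2.01 to 2.65, thinned 2.54). The high Dbx1 level of the ventral Otx2 remainder was thus partly in Nkx2-1 cells.

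**Figure D3:**
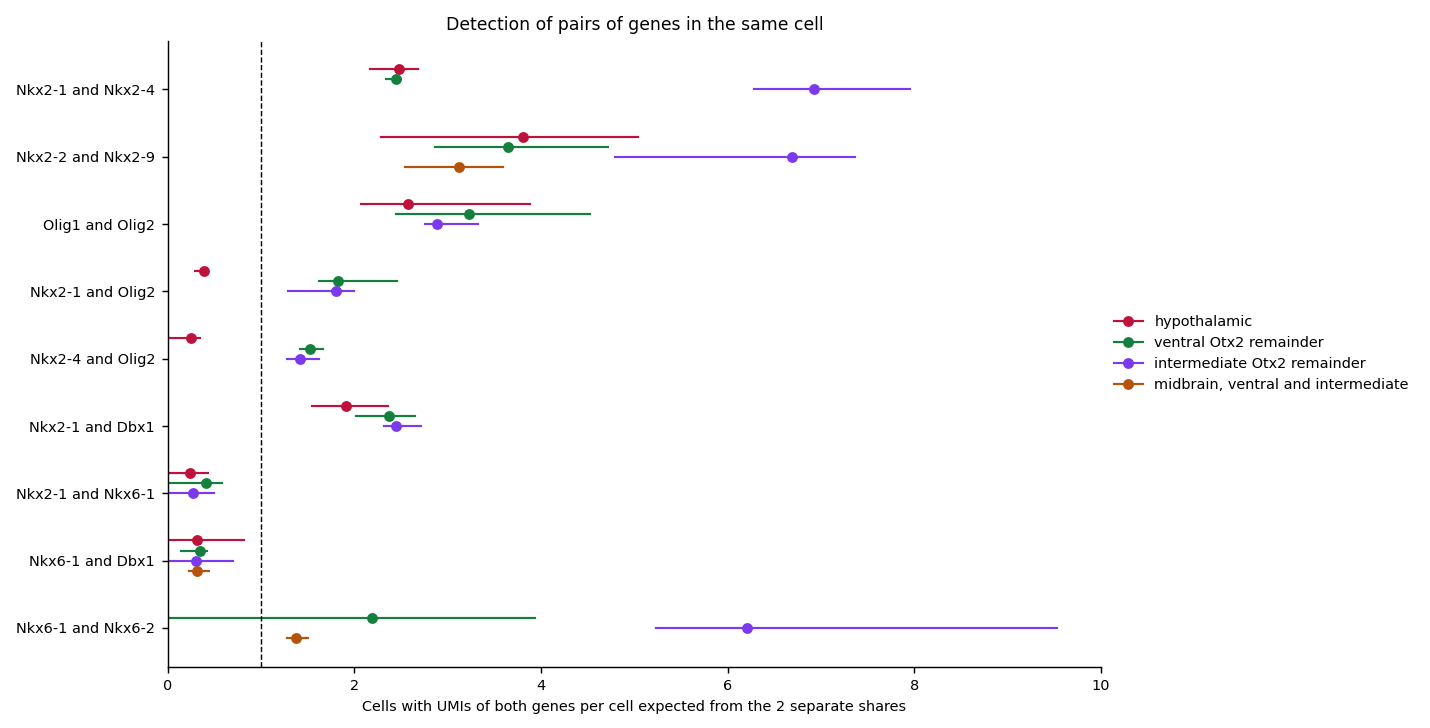
Cells with UMIs of both genes divided by the number expected from their separate shares (x axis, linear; dashed line at 1) for 9 pairs of genes (y axis), pooled over 4 libraries as points with the range over libraries as bars, coloured by gate. Nkx2-1 and Olig2 stand at 0.385 in the hypothalamic gate and 1.83 in the ventral Otx2 remainder, and Nkx6-1 and Dbx1 stand below 1 in each gate drawn.

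Young neurons of the same heads, 1564 cells with neuronal genes above the limit, were divided by the transcription factor detected beside them. Nkx6-1 had 721 and 404 CPM in Apcdd1+/- and 705 and 615 CPM in WT in the 83 neurons with Phox2a, a factor of branchial and visceral motor and noradrenergic neurons. The 227 neurons with Isl1 or Isl2 but no Phox2a had 39.5 and 348 CPM of Nkx6-1 in Apcdd1+/- and 116 and 277 CPM in WT, below every library of the Phox2a neurons. Nkx6-2 overlapped between these neurons, with 47.0 and 57.0 CPM in Apcdd1+/- and 154 and 124 CPM in WT in Phox2a neurons, against 9.22 and 84.7 CPM in Apcdd1+/- and 32.4 and 61.1 CPM in WT in Isl neurons. Nkx2-1 had its highest mean in the Isl neurons, with 103 and 97.3 CPM in Apcdd1+/- and 42.5 and 32.6 CPM in WT, and the Phox2a neurons, with 15.7 and 36.3 CPM in Apcdd1+/- and 0 and 41.5 CPM in WT, overlapped with them. Neurons with Gata2 or Gata3, factors of inhibitory neurons of the midbrain and hindbrain, had 56.9 and 21.9 CPM of Nkx2-2 in Apcdd1+/- and 34.2 and 45.6 CPM in WT. Isl neurons had 13.2 and 19.8 CPM of Nkx2-2 in Apcdd1+/- and 11.2 and 8.15 CPM in WT, below each Gata library. Dbx1 had its highest mean in neurons with Lhx1 or Lhx5, with 197 and 101 CPM in Apcdd1+/- and 127 and 210 CPM in WT. These neuron groups hold 15 to 37 cells per library for Phox2a and Gata and were compared as values only.

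**Figure D4:**
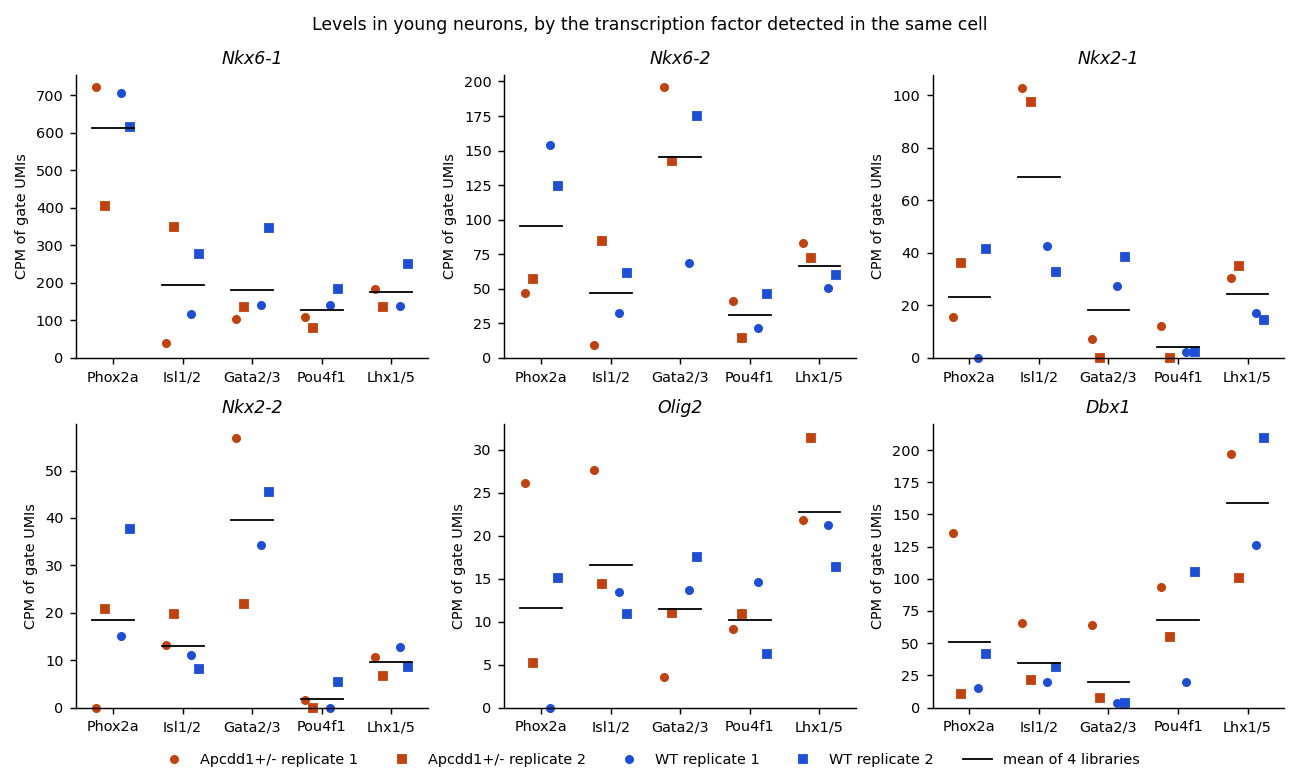
CPM (y axes, linear, from 0) of 6 genes in young neurons grouped by the transcription factor detected in the same cell (x axes), 1 point per library and the mean as a line. Nkx6-1 stands at 404 to 721 CPM in Phox2a neurons and at 39.5 to 348 CPM in Isl neurons, and Nkx2-1 has its highest mean in Isl neurons.

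Genes of the Hedgehog pathway were read in the same contrasts, leaving out the gate gene Shh. In the ventral against the dorsal midbrain, 2 of 13 tested were higher and 5 lower, beside the 5.59% and 5.26% of all genes given above. The targets Ptch1 (log2 difference 2.47, SE 0.20), a feedback receptor, and Gli1 (1.27, SE 0.31) were higher, together with 6 of the 9 members. The repressor Gli3 (-3.35, SE 0.23) and the coreceptors Boc (-2.74), Cdon (-2.80) and Gas1 (-3.22), with Gli2 (-1.61), were lower. The list's median was -0.34, against -0.02 over all tested genes. Between the hypothalamic gate and the ventral midbrain, where 3 members were higher and 3 lower, 1 of the 13 was higher (Gli3, 2.25) and none lower. Irx3 and Irx5, homeodomain factors that Olig2 and Nkx2-2 oppose in the spinal cord, were the 2 tested of the 5 opposing genes that set no gate, and both were lower in the hypothalamic gate than in the ventral midbrain (Irx3 -5.37, SE 0.27; Irx5 -5.18, SE 0.41). They were not called between the ventral and dorsal midbrain (-0.23 and -0.22), but both were lower in the ventral than in the dorsal Otx2 remainder (Irx3 -0.97, SE 0.11; Irx5 -0.92, SE 0.15). Of the 7 corepressor genes of the Tle and Hdac kind through which Nkx proteins act, none was called in either of these contrasts with the ventral midbrain. In the ventral against the dorsal Otx2 remainder, Tle2 (3.06, SE 0.67) and Tle5 (0.67, SE 0.11) were higher and Tle4 (-0.91, SE 0.13) lower. Of the 2 tested ventral neuron genes that set no gate, the interneuron factor Sim1 was higher in the ventral than in the dorsal midbrain (4.64, SE 0.50) and Lmx1b had 1.13 (SE 0.44) without a call. Between the genotypes no gene of these lists was called in any gate tested.

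No member differed between the genotypes at an edgeR adjusted p under 0.05, in any of the gates tested. Over all gated progenitors, 0% of 13971 tested genes were called, 208 had an unadjusted p under 0.05, and DESeq2 called 0. The log2 differences of the 9 members ran from -0.36 for Nkx6-1 (SE 0.19) to 0.40 for Nkx2-9 (SE 0.18), and Nkx6-2 had 0.00 with a 95% interval of -0.30 to 0.30. In the hypothalamic gate 0% of 10422 genes were called (293 with an unadjusted p under 0.05, DESeq2 0), and Nkx2-1 differed by -0.01 with an interval of -0.46 to 0.43. In the ventral midbrain 0% of 7148 genes were called (269 unadjusted, DESeq2 0), with 5 members past the filter on low counts. In the ventral Otx2 remainder 0% of 10132 were called (254 unadjusted, DESeq2 0), and in the intermediate midbrain 0% of 9114 (250 unadjusted, DESeq2 0). Of the members, 5 passed the filter in the intermediate midbrain as well.

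Single gates held larger differences that did not pass the adjustment. In the intermediate hindbrain, where 0% of 7316 genes were called by edgeR (227 with an unadjusted p under 0.05, DESeq2 0), Nkx2-9 had 54.1 and 52.8 CPM in Apcdd1+/- and 8.31 and 21.1 CPM in WT (log2 difference 1.89, SE 0.46, edgeR unadjusted p = 0.0017, adjusted p = 1.00). Nkx6-1 had 28.5 and 85.1 CPM in Apcdd1+/- and 152 and 135 CPM in WT in that gate (-1.22, SE 0.37, edgeR unadjusted p = 0.0060). The 2 groups did not overlap for either gene, at 33 to 60 cells per library. The intermediate gate is set by genes without a UMI, so it depends on depth. Its median UMIs per cell were 10108 and 9244 in Apcdd1+/- and 11593 and 14845 in WT, so genotype and depth could not be told apart. In neurons edgeR called 1 of 11755 genes (0.00851%), the somatostatin gene Sst, lower in Apcdd1+/- (-2.01, SE 0.22, adjusted p = 0.0015). There Nkx2-1 had 33.4 and 27.1 CPM in Apcdd1+/- and 15.7 and 19.3 CPM in WT (0.86, SE 0.24, edgeR unadjusted p = 0.0029, adjusted p = 1.00). Nkx2-4 had 14.1 and 9.67 CPM in Apcdd1+/- and 7.64 and 3.61 CPM in WT (1.08, SE 0.41), and Olig2 18.7 and 21.5 CPM in Apcdd1+/- and 12.8 and 11.7 CPM in WT (0.75, SE 0.27). For these 3 genes too the groups did not overlap, which 2 libraries against 2 often give by chance. The share of such genes over all tested genes was not counted, and no call was made. Whether the genotype difference itself varied over the 9 gates was tested as an interaction in edgeR, with 0% of 11295 genes called and 263 at an unadjusted p under 0.05. In that test Nkx2-4 had an unadjusted p of 0.0159 and Nkx6-1 one of 0.0202.

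**Figure D5:**
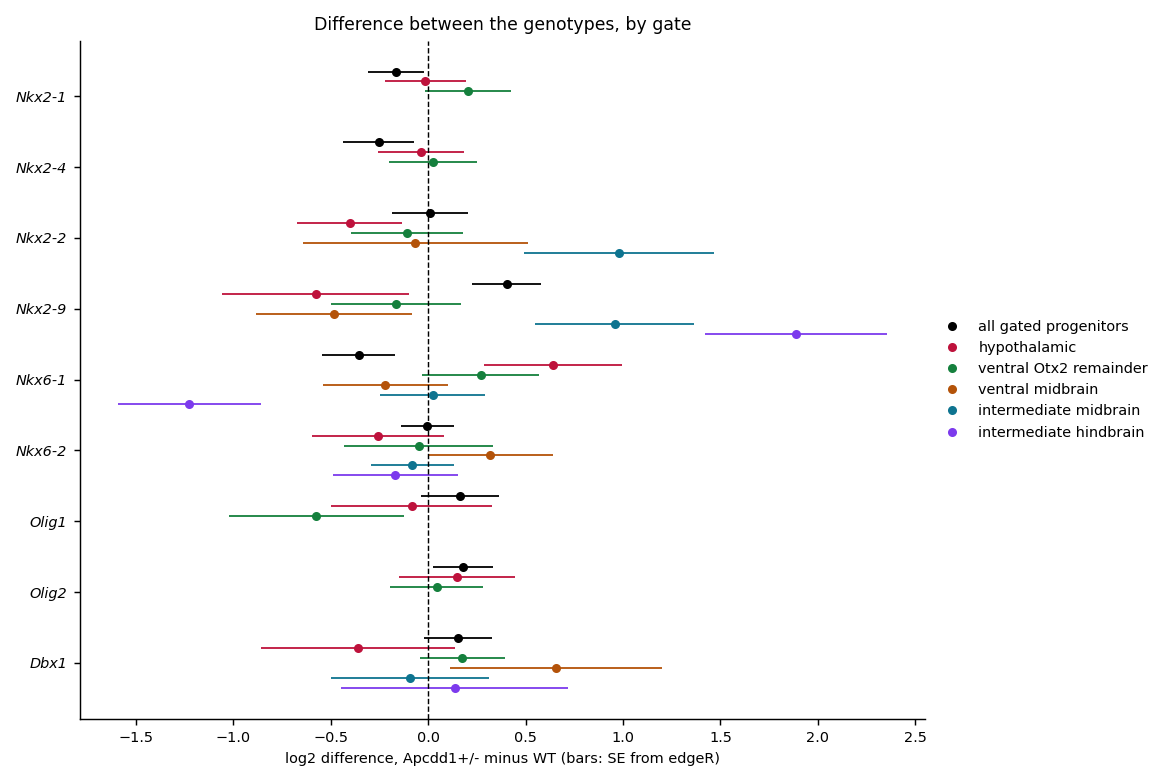
log2 difference, Apcdd1+/- minus WT (x axis), for each gene (y axis) in 6 sets of cells, with the SE from edgeR as bars. Most points lie within 1 of 0, Nkx2-9 (1.89) and Nkx6-1 (-1.22) in the intermediate hindbrain stand apart, and none was called.

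The genes most like each member over the 9 gates with enough cells were found by Pearson's r of log2(mean CPM + 1), among 9312 genes. Points of 1 gate share the 4 libraries, so r describes these gates only. Pearson's r compares the shape of 2 profiles, not the size of their changes. How high the best r among 9312 genes over 9 gates would run by chance was not tested. The nearest were Trub2 (r = 0.97), Npdc1 (0.958) and Sox5 (0.953) for Nkx2-1, and Gpx7 (0.95), Pcsk1n (0.944) and 1110032A03Rik (0.943) for Nkx2-4. Nkx2-2 was nearest to Kiz (0.978), Xrn2 (0.972) and Foxd1 (0.948), and Nkx2-9 to Mb21d2 (0.949), 1810024B03Rik (0.948) and Shisa3 (0.947). Xrn2 was nearly flat, with means of 198 to 245 CPM over these gates, against 0.136 to 23.1 CPM for Nkx2-2. Nkx6-1 was nearest to Phf20 (0.97), Thrap3 (0.947) and Cdkal1 (0.933), and Nkx6-2 to Csnk1a1 (0.964), St3gal3 (0.93) and Shisa3 (0.921). Olig1 was nearest to Copg2 (0.95), Fezf2 (0.932) and Lhx5 (0.93), Olig2 to Fezf2 (0.979), Dmrta2 (0.958) and Fam3c (0.95), and Dbx1 to Satb1 (0.933), Ift80 (0.929) and Cox4i1 (0.922). Among the members themselves Olig1 and Olig2 had r = 0.974, Nkx2-9 and Nkx6-1 0.954, Nkx2-1 and Nkx2-4 0.779, and the neighbours Nkx2-1 and Nkx2-9 only 0.239. Dbx1 had -0.166 to 0.351 with the other 8.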

How the data were processed

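The deposited tables hold raw UMI counts per gene and cell, made with PISA 0.12 per the file headers, and the submitters' processing notes name Scanpy 1.9.1 and mm10. The labels state no other filter on the deposited cells. Cells with at least 500 genes and under 10% mitochondrial UMIs were kept. No doublet caller was run, so doublets remain and can carry markers of more than 1 region. Neural progenitors had at least 2 UMIs of neural genes, at most 3 of non-neural and under 10 of neuronal genes per 10000 UMIs. Of 15966 progenitors, 9103 entered a region gate, and those with both ventral and dorsal genes or with retina genes were left out. Telencephalic cells stayed in the joint fits, the pooled progenitors and the 9 gates of the correlations. Values for them, and for some genes of the lists, are not reported here.

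UMI counts were summed per gate and library and tested with edgeR 4.0.16 (quasi-likelihood, TMM, R 4.3.3) with Benjamini-Hochberg adjustment over all tested genes and a threshold of 0.05, with the library as a block between gates. Alternatives were DESeq2 1.42.0, RLE size factors, no filter on low counts, cells thinned to 5000 UMIs, stricter gates, no library block, a replicate block and each library left out. Stricter gates needed 2 or more UMIs in total of the ventral, the midbrain (En1, En2, Pax5) or the hindbrain genes, and Rax in the hypothalamic gate. Dorsal genes and Otx2 still needed any UMI. The fits were tested on simulated counts. A gate needed 20 cells in every library. The ventral midbrain was fitted with 10, since 1 library held 13, and 5 contrasts between gates, the genotype tests in the ventral Otx2 remainder and in neurons and the Phox2a gate were added after levels were seen. The members and gene lists were chosen with earlier results of these data known. Beside the members, the text names for each the 3 genes of highest Pearson r over the gates, and of each list the genes past the threshold or with the highest CPM. Intervals on shares and the limits of 3 UMIs for a count of 0 cover counting error only. The barcode list of Apcdd1+/- replicate 1 names 6738 barcodes for 9735 cells, so shared barcodes were counted in part.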

Additional observations from a re-analysis of the deposited data

How the results depend on the processing

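Of 41 member differences called between gates, 27 kept their direction and call in every alternative run, and of 360 alternatives for called differences 334 kept both, 26 lost the call and none turned its sign. With cells thinned to 5000 UMIs fewer genes were called: 68 for intermediate against dorsal hindbrain, 521 for hypothalamic against ventral Otx2 remainder, 615 for ventral against dorsal Otx2 remainder and 310 for hypothalamic against intermediate hindbrain. Between genotypes the calls on thinned cells were 1 in all kept cells, against 0 without thinning, and 0 in neurons, against 1. The log2 difference then turned for Nkx6-2 (0.42) and Olig2 (0.062) in the hypothalamic gate against the ventral Otx2 remainder, and between genotypes in gated progenitors for Nkx2-2 (-0.28) and Olig2 (-0.013). Stricter gates, which required Rax in the hypothalamic gate, turned Nkx2-2 (-0.63) in that gate against the ventral Otx2 remainder. Without the library block the calls were 148, 675 and 703 for the first 3 of these contrasts, 744 for ventral against dorsal midbrain and 423 for ventral against intermediate midbrain. DESeq2 called 3 genes between genotypes in all kept cells, and gave Nkx6-2 0.0043 in gated progenitors, as did RLE size factors (0.0043). Without a filter on low counts the genotype calls were 3 in all kept cells, 10 in gated progenitors, 9 in the hypothalamic gate, 6 in the ventral midbrain, 10 in the intermediate hindbrain, 1 in the intermediate midbrain, 1 in the ventral Otx2 remainder and 23 in neurons. The cause was not tested.

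The labels do not state whether the replicate numbers pair the samples. Same-numbered libraries deviated together weakly (correlation 0.0785 over 8622 genes in all kept cells and 0.0363 over 8381 in gated progenitors, 2 pairs each), and so few libraries cannot settle pairing. With a replicate block the genotype calls were 5 in all kept cells, 2 in gated progenitors, 8 in the ventral midbrain, 3 in the intermediate midbrain and 32 in neurons.

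With each library left out in turn, calls ranged over 148 to 279 for intermediate against dorsal hindbrain, 435 to 708 for ventral against intermediate midbrain and 472 to 613 for ventral midbrain against intermediate hindbrain. Between genotypes, where 1 group is then a lone library assumed to vary like the others, they ranged over 0 to 222 in all kept cells, 0 to 148 in gated progenitors, 3 to 14 in the hypothalamic gate, 0 to 11 in the ventral midbrain, 1 to 132 in the intermediate hindbrain, 3 to 8 in the intermediate midbrain, 0 to 15 in the ventral Otx2 remainder and 2 to 99 in neurons. The largest of these, 222, 148, 132, 15 and 99, came without Apcdd1+/- replicate 2. Member differences that crossed 0 were -2.82 to 4.05 for Nkx2-4, -3.19 to 3.98 for Olig1 and -0.21 to 0.49 for Dbx1 in intermediate against dorsal hindbrain. Against the ventral Otx2 remainder the hypothalamic gate gave -0.018 to 0.32 for Nkx2-4, -0.16 to 0.042 for Nkx6-2, -0.077 to 0.071 for Nkx2-2, -0.37 to 0.13 for Olig1 and -0.21 to 0.18 for Olig2, and against the ventral midbrain -0.53 to 0.14 for Nkx2-2. Ventral against intermediate midbrain gave -0.61 to 2.43 for Nkx2-1, -0.92 to 0.35 for Olig2, -0.050 to 0.51 for Dbx1, -0.19 to 0.75 for Nkx2-9 and -0.67 to 1.9 for Olig1. Ventral midbrain against intermediate hindbrain gave -0.21 to 3.18 for Nkx2-1, -0.13 to 0.40 for Nkx6-2, -0.43 to 0.047 for Nkx6-1, -0.52 to 0.066 for Dbx1 and -0.47 to 1.45 for Olig2. Between genotypes in gated progenitors the ranges were -0.16 to 0.16 for Nkx2-2, -0.12 to 0.38 for Dbx1 and -0.031 to 0.034 for Nkx6-2. None of these member differences was called with all 4 libraries. The contrasts with the ventral midbrain were not run on thinned cells or stricter gates, which left too few cells. In that gate of Apcdd1+/- replicate 2, with 13 cells, 1 UMI is worth 5.05 CPM.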

Other observations

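Genes near the members, chosen after their values were seen, were read in the same gates. Kiz, a centrosomal protein gene, lies 113.2 kb from Nkx2-4 and 207.4 kb from Nkx2-2. Kiz averaged 39.3 ± 2.2 CPM in the hypothalamic gate, 38.4 ± 2.37 CPM in the ventral Otx2 remainder and 43.1 ± 7.25 CPM in the ventral midbrain, against 17.0 ± 2.12 CPM in the dorsal midbrain (SD, n = 4 libraries). It was higher in the ventral than in the dorsal midbrain (log2 difference 1.27, SE 0.22, edgeR adjusted p = 1.4e-05), as Nkx2-2 (4.74) and Nkx2-4 (3.39) were. The call of Nkx2-4 rests on few UMIs. Xrn2, an exonuclease gene 5.3 kb from Nkx2-4 and 99.5 kb from Nkx2-2, is found in every gate. Mbip, 186.1 kb from Nkx2-1, averaged 42.7 ± 9.17 CPM in the hypothalamic gate and 20.4 ± 6.13 CPM in the ventral midbrain (1.05, SE 0.21, edgeR adjusted p = 0.00018). Nav2, 21.4 kb from Dbx1, averaged 11.1 ± 2.36 CPM in the hypothalamic gate and 35.6 ± 10.1 CPM in the ventral Otx2 remainder (-1.65, edgeR), the contrast in which Dbx1 differed by -2.80. Nav2 was not called where Dbx1 was, in the ventral against the dorsal Otx2 remainder (Nav2 -0.027, Dbx1 0.92) and in the ventral against the dorsal midbrain (Nav2 0.53, Dbx1 -1.05).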
